A study of Drosophila melanogaster with 6 samples.

Results

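*H3.3B* K27R males were compared with wild-type males by RNA-seq of whole pharate adults of *Drosophila melanogaster*, the stage at which the adult is formed but still inside the pupal case. A gene entered the comparison when its mean over the 4 libraries was at least 1 RPKM (a read density, corrected for the length of the gene and the counted reads of its library), which held for 11262 of the 15115 genes listed. Of the others, 1883 had no read in any of the 4 libraries and 1970 had reads but lay under this minimum. Wild type was the strain *yw*, with 2 libraries, and the mutant males, with 2 libraries, had the genotype *yw*, *H3.3BK27R*, in which lysine 27 of the X-linked *H3.3B* gene is replaced by arginine. Both groups therefore carried the *yellow* and *white* background, and both kept wild-type *H3.3A* and wild-type replication-dependent *H3* genes. All animals were males of 96 to 108 hours after puparium formation, and each library was made from a pool of whole males. Males have 1 X chromosome, so that the mutants made no wild-type H3.3 from *H3.3B*. Anything else that differed between the X chromosome of the edited stock and that of *yw* was carried along with the mutation and cannot be told apart from it. A further genotype of the experiment, *H3.3B* K27R with a homozygous *H3.3A* K27R mutation (2 libraries), entered here only to estimate the spread between replicates. The labels do not say whether the 2 libraries of a genotype came from separate crosses, so that p values measure the spread between these libraries.

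Histone H3.3 is the H3 variant that is placed into chromatin outside of DNA replication, and it takes a growing share of H3 in cells that no longer divide. Its lysine 27 is methylated by Polycomb Repressive Complex 2 (PRC2), a mark of silenced developmental genes that is read by Polycomb Repressive Complex 1 (PRC1), and it is acetylated at active promoters and enhancers. In a pharate adult male the epidermis is finishing and tanning the adult cuticle, photoreceptors are completing their rhodopsin and pigment, the testis is filled with spermatocytes and elongating spermatids, and the accessory gland, ejaculatory duct and ejaculatory bulb are starting to make the proteins of the seminal fluid. Genes are therefore described by the tissue and function they are known for.

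Reads on genes numbered 1591441 and 2118264 in *yw* replicates 1 and 2 and 1915687 and 1602741 in *H3.3B* K27R replicates 1 and 2, which is shallow for whole animals, and 1 read on a gene of 1 kb was worth between 0.472 and 0.628 RPKM. The libraries held the markers of a whole male: *roX1*, the X chromosome dosage compensation RNA, lay between 158 and 211 RPKM, *ninaE* (the main rhodopsin) between 808 and 901, *Act88F* (flight muscle actin) between 4356 and 4732 and *betaTub85D* (testis tubulin) between 106 and 141, whereas the yolk protein genes *Yp1* and *Yp2*, made in females, were under the expression minimum. The digestive protease genes *Jon25Bi* and *Jon99Ci* were under it as well. *Yp3*, the other yolk protein gene, passed the minimum, at 1.69 and 0 RPKM in *yw* against 1.75 and 2.51 RPKM in *H3.3B* K27R. *yw* replicate 1 stood apart from the other libraries. Among the 3181 genes with a mean of at least 20 RPKM, 93 differed by more than 1 log2 unit between the *yw* replicates and 15 between the *H3.3B* K27R replicates. *yw* replicate 1 differed by that much from the *H3.3B* K27R libraries at 185 and 141 genes, and *yw* replicate 2 did so at 72 and 61 genes. For several gene lists, counts and medians are also given without *yw* replicate 1. Fold changes of single genes are those with all libraries. Some of them were smaller without *yw* replicate 1 (*Eaat1*, -1.12 with it and -0.68 without) and some larger (*Est-6*, 0.84 with it and 1.13 without).

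The histone genes themselves were the first check of the genotype. *H3.3B* (listed as *His3.3B*) stood at 101 and 111 RPKM in *yw* and at 121 and 126 RPKM in *H3.3B* K27R, with a log2 fold change of 0.22 ± 0.11 (SE) and an adjusted p of 0.463 by limma with Benjamini-Hochberg adjustment. The mutant libraries lay above both wild-type libraries by less than the test could separate from the spread, and a mutation of 1 codon does not remove the message, so these levels say nothing about the allele. *H3.3A* (*His3.3A*) lay at 40.8 and 60.8 RPKM in *yw* and at 63.6 and 43.6 RPKM in *H3.3B* K27R, and the groups overlapped, as did those of *His3*, the single annotated copy that stands for the replication-dependent *H3* genes. *His4r*, the gene for replication-independent H4, stood at 170 and 167 RPKM in *yw* against 206 and 220 RPKM in *H3.3B* K27R (log2 fold change 0.34 ± 0.11, adjusted p = 0.315, limma), and *His4*, the replication-dependent form, at 57.1 and 46.5 against 41.5 and 37.8 RPKM.

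Over all genes tested, both *H3.3B* K27R libraries lay above both *yw* libraries at 2203 genes (19.6%), below both at 2867 genes (25.5%), and the groups overlapped at 6192 genes (55%). At an unadjusted p below 0.05 in limma, 471 genes (4.18%) had a higher level in the mutants and 918 (8.15%) a lower one, so that 33.9% of them were higher. This split followed the scaling: it was 48.2% after quantile normalization and 47.3% after centring each library on its median gene, and the median over all genes moved from -0.019 to 0.0379 and 0.0314 on the log2 scale. After adjustment, 4 genes (0.0355%) rose and 3 (0.0266%) fell at an adjusted p below 0.05, and 1 gene (0.00888%) passed an adjusted p of 0.01 with more than a 2-fold change. When reads recovered from the RPKM values were weighted by voom, 7 genes (0.0622%) passed the stricter rule and 18 passed an adjusted p of 0.05, of which 3 were among the 7 of limma. These calls rest on having all libraries: without *yw* replicate 1 or without *yw* replicate 2 limma called 0 genes at either threshold, with 978 and 1440 genes at an unadjusted p below 0.05, and without *H3.3B* K27R replicate 1 or replicate 2 it called 1 gene at an adjusted p below 0.05.

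The 7 genes past the test in limma were a small non-coding locus, 3 protein-coding genes and 3 small nucleolar RNAs. *CR40469*, a non-coding locus at X:122493-122706 in the BDGP6 annotation, stood at 828 and 931 RPKM in *yw* and at 12.2 and 11.7 RPKM in *H3.3B* K27R, and fell by 6.09 on the log2(RPKM + 1) scale (SE 0.18, adjusted p = 0.000188, limma). Its mean RPKM was 73.7 times as high in *yw*. *Muc4B*, a mucin-like gene also on the X chromosome, had 0 reads in both *yw* libraries against 32 and 25 reads, or 10.4 and 9.69 RPKM, in *H3.3B* K27R. It rose (adjusted p = 0.0184, limma) and was at least 9.78-fold higher against a floor of 3 reads per library. *CG43218*, on 3L, rose from 75.6 and 90.7 RPKM in *yw* to 362 and 358 RPKM in *H3.3B* K27R, a log2 fold change of 2.11 ± 0.15 with an adjusted p of 0.019 in limma and 0.000147 with voom weights. The 3 genes passed with voom weights too, and in each of them the replicates of a genotype lay close together and far from the other genotype.

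The other 4 calls rested on few reads. *CG32640* had 0 reads in both *yw* libraries against 14 and 6 in *H3.3B* K27R (16.5 and 8.43 RPKM), at least 3.35-fold higher against the same floor, with an adjusted p of 0.0315 in limma and 0.121 with voom weights. Its neighbour of like name on the X chromosome, *CG32641*, stood at 1.42 and 7.46 RPKM in *yw* and at 17.7 and 12.7 RPKM in *H3.3B* K27R, and since such pairs can be near-identical copies the reads of either are uncertain. *snoRNA:Psi28S-1192b* had 3 and 7 reads in *yw* and 0 in both *H3.3B* K27R libraries, *snoRNA:Psi28S-1175b* had 2 and 3 against 0, and *snoRNA:bur-a* had 0 in *yw* against 4 and 2. All 3 small nucleolar RNAs, which guide the modification of ribosomal RNA, had an adjusted p of 0.0315 in limma and between 0.197 and 0.31 with voom weights.

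**Figure D1:**
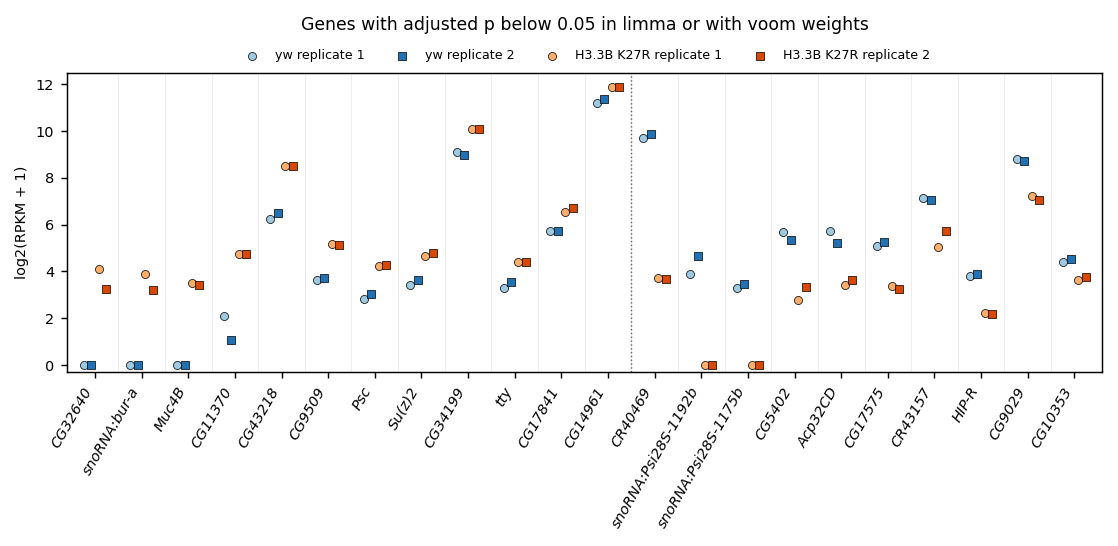
Level of each gene with an adjusted p below 0.05 in limma or with voom weights, as log2(RPKM + 1) on the vertical axis, in each of the 4 libraries (circles for replicate 1, squares for replicate 2, blue for yw, orange for H3.3B K27R). Genes left of the dotted line were higher in H3.3B K27R and those right of it lower; *CR40469* shows the widest separation among the genes that have reads in both genotypes, from 828 and 931 to 12.2 and 11.7 RPKM.

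Voom weights, which take the number of reads behind each value into account, added 15 genes. Among those that were higher in *H3.3B* K27R, *CG34199* stood at 557 and 506 RPKM in *yw* against 1094 and 1073 RPKM in the mutant (adjusted p = 0.00345 with voom weights and 0.0801 in limma). *CG17841*, on the X chromosome, stood at 51.7 and 52.5 against 91.5 and 104 RPKM, and *tty* (tweety), a chloride channel gene, at 8.71 and 10.9 against 19.9 and 20.4 RPKM. *CG14961*, among the most abundant messages of the animal, stood at 2326 and 2680.1 against 3742 and 3758 RPKM, a ratio of means of 1.5, with an adjusted p of 0.0252 with voom weights. *CG9509*, a gene of the GMC oxidoreductase family on the X chromosome, stood at 11.3 and 12.3 against 35.3 and 33.9 RPKM (adjusted p = 0.00584 with voom weights and 0.056 in limma). *CG11370*, on 3L, stood at 3.32 and 1.07 RPKM in *yw*, on 7 and 3 reads, against 25.6 and 25.9 RPKM (adjusted p = 0.0252 with voom weights and 0.0692 in limma), and here the *yw* replicates stood apart by less than either did from the mutants. Among those that were lower, *CG5402* stood at 50.1 and 39.9 RPKM in *yw* against 5.94 and 9.13 RPKM in the mutant, *CR43157* at 141 and 133 against 31.9 and 51.9, and *CG10353* at 19.9 and 22.1 against 11.5 and 12.7. *HIP-R*, a gene for a cofactor of the Hsp70 chaperone, stood at 12.9 and 13.7 against 3.66 and 3.5 RPKM, while its neighbour and near copy *HIP* stood at 8.25 and 8.5 against 15 and 15.2 RPKM. The pair lay on opposite sides, and their reads may be split between the copies. In every one of these genes the 2 mutant libraries lay on 1 side of both wild-type libraries. Among the largest differences with groups separated in RPKM were also genes that no test called. The *mir-1* locus had 0 reads in *yw* against 5 and 2, 1 small nucleolar RNA on 3R had 0 and 1 against 3 and 2, *snoRNA:lola-d* 0 and 3 against 5 and 3, and *CG43350* 4 and 2 against 18 and 12. *CG2650*, on the X chromosome, lay on the other side, with 70 and 18 reads in *yw* against 2 and 1.

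The X chromosome held 8 of the 18 genes called with voom weights (44.4%), 4 higher and 4 lower, beside 15.9% of all located genes (1767 of 11118). They did not sit next to *H3.3B*, which lies at X:9152523-9156669 in BDGP6. The nearest, *CG17841*, was 1.22 Mb from it, *CG10353* 2.73 Mb and *CR43157* 2.76 Mb, and the farthest, *tty*, 12.2 Mb. Of the 50 tested genes within 200 kb of *H3.3B*, both mutant libraries lay above both *yw* libraries at 11 and below both at 10, the median log2 fold change was 0.0813, and limma called 0 of them at an adjusted p below 0.05, with 3 higher and 4 lower at an unadjusted p below 0.05, and voom called 0. At that unadjusted threshold in limma, 4.18% of all genes were higher and 8.15% lower. The genes on either side, *Ost48* (a subunit of oligosaccharyltransferase, 22 and 24 against 27.3 and 29.3 RPKM) and *dalao* (a subunit of the Brahma chromatin remodeller, 20.3 and 23.7 against 24.1 and 21), lay at unadjusted p values of 0.0719 and 0.813 in limma, and the next genes *Dip1*, *CG9034*, *fh* and *Zpr1* overlapped between genotypes. Over the whole arm, mutant libraries lay above both *yw* libraries at 24.4% and below both at 19.4% of X-linked genes, whereas on 2L these shares were 18.2% and 28.8% and on 2R 19.4% and 27%.

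To describe the comparison by tissue, 42 lists of genes were counted, each beside the same counts over all genes. The direction of a list was read against *yw* replicate 1, since in several lists with a wide difference the 2 *yw* libraries also stood apart. With all 4 libraries, 19.6% of all genes lay above and 25.5% below both *yw* libraries, and every such count of a list is to be read beside these shares. Where 1 *yw* library is left out, a gene has fewer libraries to pass. The shares of all genes above and below were then 30.9% and 40.8% without *yw* replicate 1 and 36% and 39.7% without *yw* replicate 2. In bulk RNA, fewer cells of a type and less RNA per cell cannot be told apart. Among lists of at least 7 tested genes, the lowest medians were those of a small set of lipases (8 genes, -0.53), of seminal fluid genes (-0.44) and of spermatogenesis genes (-0.37), and the highest were those of Tweedle and other cuticle proteins (0.60), antimicrobial peptides (0.60) and Cpr cuticle proteins (0.36). The lipase set was built around *CG18302*, a gene the study lists from these libraries, and holds it. Its place in this order is therefore no separate result, and its median was -0.135 without *yw* replicate 1. Of all members of these lists, those past the test in limma were *Muc4B*, *CR40469* and the 3 small nucleolar RNAs named above, so that the rest is given as counts and values.

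**Figure D2:**
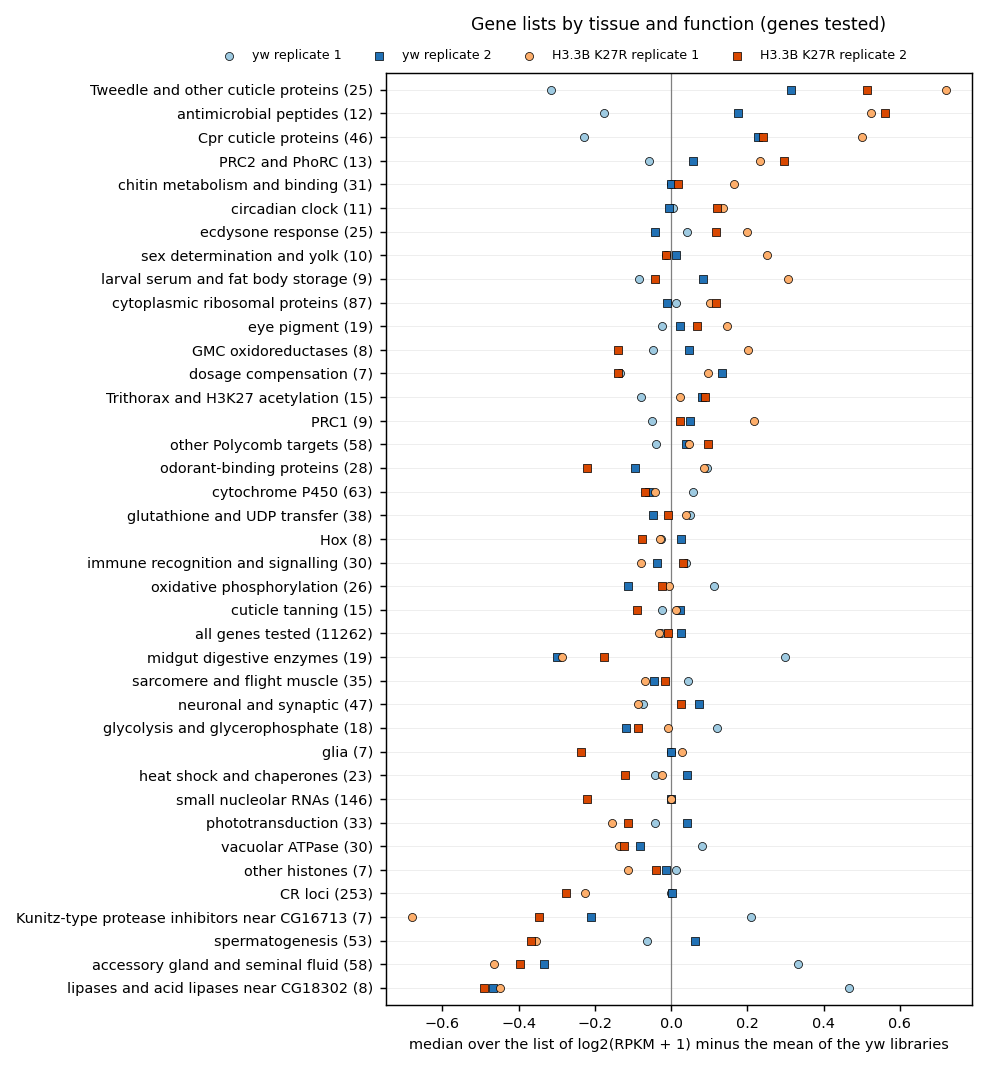
Median over each gene list of log2(RPKM + 1) minus the mean of the 2 yw libraries (horizontal axis, log2 units), 1 point per library, with the number of genes tested in brackets and lists ordered by the difference between genotypes. The 2 H3.3B K27R points of the spermatogenesis list lie left of both yw points, whereas in the accessory gland list and both cuticle protein lists yw replicate 2 lies between yw replicate 1 and the mutant libraries.

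Seminal fluid genes lay below wild type as a list, but mostly against *yw* replicate 1. Of the 58 tested, both mutant libraries lay below both *yw* libraries at 25 and above both at 2, and the median log2 fold change was -0.437 (-0.406 when the 7 genes with 0 reads in the mutants are put at their bounds), beside -0.019 over all genes. The summed level of the list was 11825 RPKM in *yw* replicate 1, 6247 in *yw* replicate 2, and 6664 and 6602 in *H3.3B* K27R. The sum was thus high in 1 wild-type library and about equal in the other 3 libraries. Without *yw* replicate 1 the median was -0.152, with 26 genes (44.8%) below and 19 (32.8%) above the remaining *yw* library, close to the 40.8% and 30.9% of all genes. Without *yw* replicate 2 it was -0.969, with 50 (86.2%) below, against 39.7% of all genes.

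A smaller group within that list was low or absent in the mutants against both *yw* libraries. *Sfp60F*, a seminal fluid gene, stood at 151 and 29.6 RPKM in *yw* and had 0 reads in both *H3.3B* K27R libraries (at least 21-fold lower). *Sfp24Bb*, a seminal fluid gene on 2L, stood at 127 and 31.1 RPKM against 0 and 0 (at least 20.9-fold lower), and *Sfp87B* at 154 and 22.7 RPKM against 0 and 0 (at least 20.3-fold lower). All 3 had reads in both *yw* libraries and none in either mutant library, and *yw* replicate 1 was several times as high as replicate 2. In double *H3.3* K27R males, *Sfp60F* stood at 18 and 114 RPKM, the first below both *yw* libraries and the second between them. *Acp24A4*, an accessory gland gene next to *CG16713*, stood at 29.6 and 5.93 RPKM in *yw* against 0 and 0. The adjusted p of these genes in limma lay between 0.0901 and 0.212, and with voom weights between 0.254 and 0.369.

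The ejaculatory bulb makes the waxy proteins of the mating plug, for which *Peb*, *PebII* and *PebIII* are the defining genes. *Peb* stood at 70.3 and 13.3 RPKM in *yw*, on 171 and 43 reads, and at 0.341 and 0.408 RPKM in *H3.3B* K27R, on 1 read each. The pooled ratio was 101, with a 95% Clopper-Pearson interval from 27.8 to 843 that covers counting error only, and the adjusted p was 0.2 in limma. *PebII* stood at 38.9 and 2.66 RPKM against 0 and 0 (at least 4.3-fold lower), and it lies next to *Sfp60F* on 2R, with starts at 25173568 and 25172245 in BDGP6. The more abundant *PebIII* stood at 2363 and 1708 RPKM in *yw* against 1704 and 1685 in the mutants, both just below *yw* replicate 2 (log2 fold change -0.25 ± 0.17, adjusted p = 0.582, limma). The other 2 defining genes of the bulb had 0 or 1 read in each mutant library. *CG15617* (130 and 19.9 against 0.815 and 0 RPKM) and *CG17386* (568 and 129 against 22.3 and 26.3 RPKM), which are in no list, had the same order of the 4 libraries, with *yw* replicate 1 highest and both mutant libraries lowest.

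In the ejaculatory duct, *Dup99B*, a gene for a peptide related to sex peptide, stood at 343 and 212 RPKM in *yw* against 84.2 and 92.6 RPKM in *H3.3B* K27R (log2 fold change -1.60 ± 0.38, adjusted p = 0.244, limma). *Est-6*, the duct esterase, had the opposite order, at 13.7 and 8.74 against 19.3 and 21.4 RPKM (log2 fold change 0.84 ± 0.23, adjusted p = 0.272).

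In the accessory gland itself the genes divided into those that were low in both mutant libraries against both wild-type libraries and those whose groups overlapped. *Acp32CD* stood at 52.4 and 36.6 RPKM in *yw* against 9.67 and 11.6 RPKM in the mutants, with an adjusted p of 0.0252 with voom weights and 0.0692 in limma. *CG17575*, a cysteine-rich secretory protein of the sex peptide network that is in no list, stood at 33.5 and 37 against 9.27 and 8.48 RPKM (adjusted p = 0.0206 with voom weights and 0.0801 in limma). For both, the *yw* replicates lay close together, so that the difference was about as wide against either of them. The 2 lectins of the same network followed, *lectin-46Ca* at 15.9 and 17.5 against 2.36 and 1.69 RPKM and *lectin-46Cb* at 9.81 and 16.7 against 3.19 and 2.54 RPKM. *CG9029*, which is in no list and is not assigned to a tissue here, also passed with voom weights (adjusted p = 0.00303). It stood at 449 and 421 against 149 and 132 RPKM. In contrast, *Acp26Aa* (ovulin, 59 and 31.5 against 30.5 and 32.6 RPKM), *Acp36DE* (a sperm storage protein, 88.6 and 56.1 against 65.5 and 73.1) and *Acp70A* (sex peptide, 530 and 199 against 276 and 232) overlapped between genotypes, as did the network members *CG9997* (13.8 and 7.48 against 7.49 and 12.2 RPKM) and *CG30488* (10.3 and 9.27 against 12 and 6.8).

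**Figure D3:**
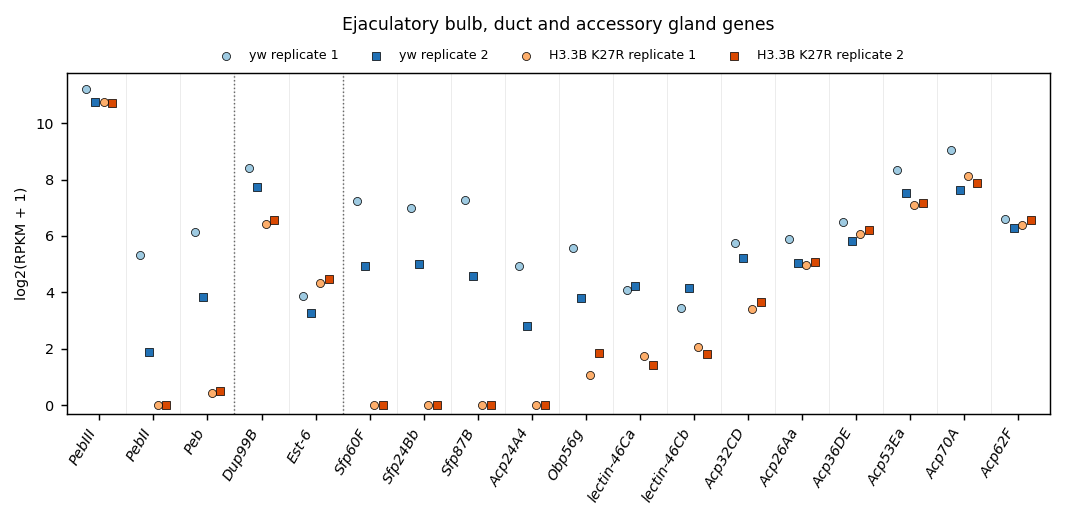
Genes of the ejaculatory bulb (left of the first dotted line), ejaculatory duct (between the lines) and accessory gland (right), as log2(RPKM + 1) in each of the 4 libraries. *Sfp60F*, *Sfp24Bb*, *Sfp87B*, *Acp24A4* and *PebII* are at 0 in both H3.3B K27R libraries, whereas *Acp26Aa*, *Acp36DE*, *Acp70A* and *Acp62F* overlap between genotypes.

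Spermatogenesis genes lay below wild type by small steps. Of the 53 tested, both *H3.3B* K27R libraries lay below both *yw* libraries at 40 (75.5%) and above both at 2, against 25.5% and 19.6% of all genes, and the median log2 fold change was -0.370. Without *yw* replicate 1, 44 (83%) lay below and 6 above, with a median of -0.452, and without *yw* replicate 2 the same number lay below with a median of -0.285, against 40.8% and 39.7% of all genes. Without the members that the seminal fluid list also holds, 40 of 50 lay below. At an unadjusted p below 0.05 in limma, 25 members (47.17%) were lower and 0 higher, against 8.15% and 4.18% of all genes. After adjustment, however, limma called 0 members (smallest adjusted p 0.168), and voom called 0 (smallest 0.0799). Summed levels of all 53 were 8191 and 6721 RPKM in *yw* and 5736 and 5503 RPKM in *H3.3B* K27R. These sums include *Mst57Db*, which overlapped between genotypes at 2667 and 1145 against 1512 and 1209 RPKM. They therefore do not give the order of the *yw* libraries for the other members. In double *H3.3* K27R males, which share the *yw* libraries with this comparison, the median against *yw* was -0.355.

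Late spermatid genes include those for proteins of the sperm tail and of sperm chromatin. *Mst87F*, of the *Mst(3)CGP* family of sperm tail proteins, stood at 274 and 266 RPKM in *yw* against 136 and 171 RPKM in *H3.3B* K27R (log2 fold change -0.82 ± 0.14, unadjusted p = 0.000806 and adjusted p = 0.168, limma). *Mst84Dc* of the same family stood at 338 and 274 against 180 and 189 RPKM. *Mst77F*, a protein of sperm chromatin, stood at 209 and 212 against 136 and 158 RPKM, and *Tpl94D*, a transition protein-like gene, at 94.4 and 102 against 65.1 and 76.2 RPKM. In each of these the *yw* replicates lay closer to each other than to either mutant library. Near-identical *Mst84D* copies may share reads.

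Genes of earlier stages and further genes of the sperm tail lay on the same side. *twe*, the Cdc25 phosphatase of male meiosis, stood at 11.6 and 9.72 RPKM in *yw* against 3.95 and 5.51 RPKM in the mutants (log2 fold change -1.04 ± 0.22, adjusted p = 0.212, limma), and *janB*, a late spermatogenesis gene, at 55.2 and 63.9 against 28.4 and 32.9 RPKM. *betaTub85D*, the tubulin of the meiotic spindle and the sperm tail, stood at 137 and 141 against 109 and 106 RPKM (log2 fold change -0.37 ± 0.11, adjusted p = 0.312). *dj* (don juan), a sperm tail protein, stood at 126 and 151 against 97.1 and 103 RPKM, the sperm aminopeptidase *S-Lap1* at 227 and 248 against 180 and 189, and *loopin-1* at 265 and 300 against 233 and 202. *bol* (boule), a translation factor needed for meiotic entry, lay near wild type, at 112 and 114 against 100 and 103 RPKM. Only 3 members of the list were lower by more than 1 log2 unit, *Sdic1*, *Sdic3* and *twe*, and the *Sdic* copies are near identical. The meiotic arrest genes *can* and *sa*, which switch on the spermatocyte program, were at 0.638 and 1.76 against 1.24 and 1.27 RPKM and at 5.26 and 3.95 against 2.73 and 9.79 RPKM, with groups that overlapped, on 15 reads or fewer per library. Of the same class, *nht* overlapped too (1.99 and 1.49 against 1.1 and 1.97 RPKM). *topi* lay below both *yw* libraries, at 4.03 and 4.81 against 3.15 and 3.53 RPKM.

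**Figure D4:**
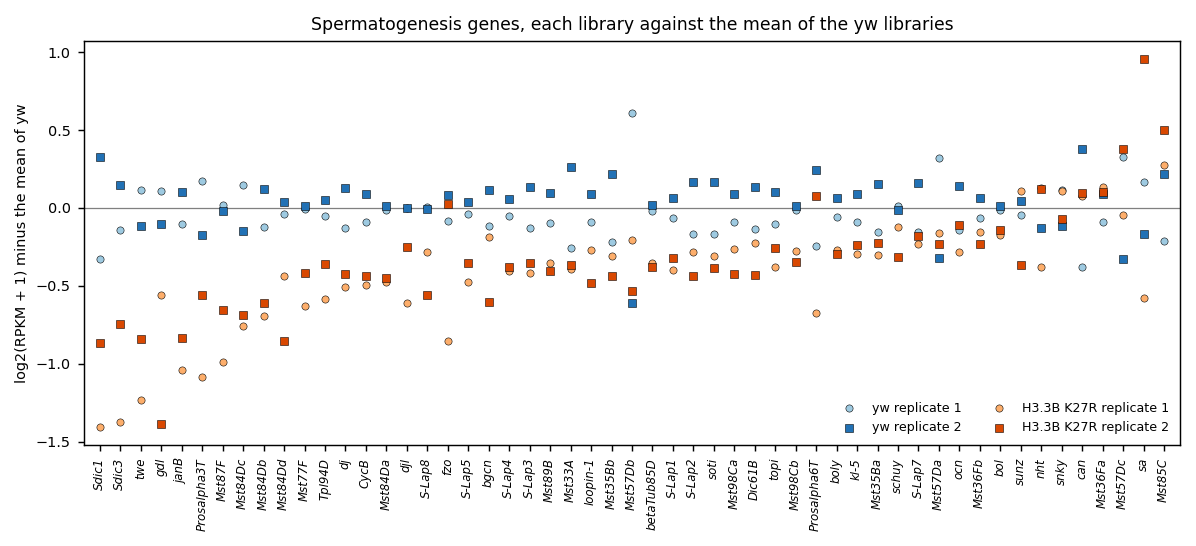
Spermatogenesis genes in order of the log2 fold change, each library shown as log2(RPKM + 1) minus the mean of the 2 yw libraries (vertical axis, log2 units). Both H3.3B K27R libraries (orange) lie below both yw libraries (blue) at 40 of the 53 genes, with a median difference of -0.370.

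Cuticle protein genes lay above wild type as lists, and again this depended in part on *yw* replicate 1. Of the 46 Cpr genes, which hold the chitin-binding Rebers and Riddiford motif, both mutant libraries lay above both *yw* libraries at 16 and below both at 6, with a median log2 fold change of 0.36, and without *yw* replicate 1 at 19 (41.3%) and 10 (21.7%) with a median of 0.10, against 30.9% and 40.8% of all genes. Of the 25 Tweedle, Lcp, Ccp84 and other cuticle genes, 15 lay above and 2 below with a median of 0.60, and without *yw* replicate 1 16 (64%) above and 6 (24%) below with a median of 0.36. By more than 1 log2 unit, 1 Cpr gene was higher and 3 were lower, and 7 of the other list were higher and 0 lower. The widest separated members of that other list were low genes. *Lcp65Ac* stood at 1.24 and 1.87 RPKM in *yw* against 7.24 and 7.41 in the mutants, and *Lcp2* at 3.51 and 0.658 against 7.28 and 6.09. The median level of that list was 3.8 RPKM in *yw*, and genes that low rest on few reads. The difference between the *yw* replicates themselves was of like size, with medians of -0.456 and -0.63 for replicate 1 minus replicate 2 in the 2 lists. *Acp65Aa*, an adult cuticle protein and the most abundant of them, stood at 1251 and 2202 RPKM in *yw* and at 2824 and 2359.8 RPKM in the mutants. *TwdlT* stood at 95.8 and 200 against 284 and 235 RPKM, *Ccp84Ag* at 207 and 292 against 443 and 351, and *Cpr47Ef* at 29.4 and 43.7 against 63.5 and 57.5 (log2 fold change 0.74 ± 0.22, adjusted p = 0.296, limma). In these 4 genes *yw* replicate 1 was lowest, *yw* replicate 2 next, and both mutants highest. *Cpr47Eg*, the 1 Cpr gene higher by more than 1 log2 unit, stood at 4.51 and 7.91 against 13.7 and 22.4 RPKM. *Cpr67Fb* had the opposite order, at 78.4 and 35.1 against 8 and 13.7 RPKM (log2 fold change -2.22 ± 0.45, adjusted p = 0.204). *Cpr49Af*, at 3.3 and 1.24 against 0 and 0 RPKM on 2 reads or fewer, and *Cpr65Av*, at 6.85 and 6.62 against 0.813 and 2.92 RPKM on 9 reads or fewer, were also below.

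The enzymes that tan and pigment the cuticle showed no common direction. Of 15, both mutant libraries lay above both *yw* libraries at 4 (26.7%) and below both at 6 (40%), against 19.6% and 25.5% of all genes. The median was -0.0181 and became 0.0357 after quantile normalization. *ple*, the tyrosine hydroxylase at the head of the dopamine pathway, stood at 2093 and 1141 RPKM in *yw* against 930 and 927 RPKM in *H3.3B* K27R, and *Ddc*, the next enzyme, at 52.6 and 34.8 against 29.3 and 32.8 RPKM. In both the mutants lay close to *yw* replicate 2 and far from replicate 1. *Dat*, dopamine N-acetyltransferase, kept the *yw* replicates together at 23.7 and 24.3 RPKM against 15.5 and 16.4 (log2 fold change -0.56 ± 0.14, unadjusted p = 0.00547 and adjusted p = 0.244, limma). *laccase2*, the oxidase that crosslinks the cuticle, stood at 43.6 and 47.7 against 55.9 and 53.9 RPKM. In the list for chitin, *Muc4B* was the member past the test, and *Idgf1*, a chitinase-like secreted factor, stood at 42.2 and 16.7 against 7.6 and 10.8 RPKM.

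Of 33 phototransduction genes, both mutant libraries lay below both *yw* libraries at 15 (45.5%) and above both at 5 (15.2%), with a median log2 fold change of -0.102, which was -0.0309 after quantile normalization and -0.0518 after median centring. Without *yw* replicate 1 these counts were 21 (63.6%) and 6 (18.2%), against 40.8% and 30.9% of all genes, with a median of -0.136. Without *yw* replicate 2 they were 15 (45.5%) and 12 (36.4%), against 39.7% and 36%, with a median of -0.0182. *Rh6*, the green-sensitive rhodopsin of inner photoreceptors, stood at 11.5 and 6.41 RPKM in *yw* against 3.19 and 2.96 RPKM in *H3.3B* K27R (log2 fold change -1.24 ± 0.30, adjusted p = 0.244, limma), and *Rh3*, an ultraviolet-sensitive rhodopsin, at 51 and 50.6 against 31.9 and 35.4 RPKM. Of the transduction cascade that photoreceptors share, *Galpha49B*, its G protein, stood at 26 and 27.3 against 16.1 and 19.1 RPKM, *norpA*, its phospholipase C, at 61.4 and 60.6 against 42.2 and 47.4, and *Arr2*, its arrestin, at 96.3 and 83.6 against 56 and 70.2. *ninaE*, the rhodopsin of the outer photoreceptors, did not follow, at 808 and 859 against 824 and 901 RPKM, nor did the channel gene *trp*, at 62.1 and 85.1 against 79.5 and 81.4 RPKM, and both overlapped between genotypes. *retinin*, a gene for a protein of the corneal lens, had the widest difference of the list, at 32.3 and 12.4 against 3.27 and 1.56 RPKM (log2 fold change -2.68 ± 0.73, adjusted p = 0.267). *prom* and *ninaA* were higher, *prom* (prominin) at 19.8 and 35 against 41.5 and 41.3 RPKM.

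Eye pigment genes had no common direction, with 6 of 19 (31.6%) above and 7 (36.8%) below, against 19.6% and 25.5% of all genes. *Hn* (Henna), phenylalanine hydroxylase, which uses a pteridine cofactor, stood at 68.9 and 85.9 RPKM in *yw* against 128 and 114 RPKM in the mutants (log2 fold change 0.64 ± 0.16, adjusted p = 0.244, limma). *se* (sepia), a pteridine enzyme, stood at 222 and 254 against 330 and 293, and *cm* (carmine), an adaptor subunit for pigment granules, at 2.48 and 2.4 against 5 and 5.28. *ltd* (lightoid), a Rab for pigment granules, lay on the other side, at 60.6 and 47.6 against 34.8 and 33.6 RPKM.

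Among 9 PRC1 genes, the neighbours *Psc* and *Su(z)2* were called with voom weights. Both encode PRC1 subunits and are known to be silenced by Polycomb themselves. *Psc* stood at 6.07 and 7.23 RPKM in *yw* against 17.7 and 18.4 RPKM in *H3.3B* K27R (log2 fold change 1.32 ± 0.17, adjusted p = 0.0901 in limma and 0.00488 with voom weights), and *Su(z)2* at 9.79 and 11.4 against 24.3 and 26.7 RPKM (1.19 ± 0.14, 0.0801 in limma and 0.00345 with voom weights). Of the others, *ph-d* lay above both *yw* libraries, at 5.94 and 6.44 against 8.44 and 7.33 RPKM, and the remaining 6 overlapped between genotypes. The list of PRC2 and PhoRC genes also holds *calypso* and *Asx*, which belong to a further Polycomb complex. Of its 13 genes, 7 (53.8%) lay above both *yw* libraries and 1 (7.69%) below both, against 19.6% and 25.5% of all genes. The median was 0.25. Without *yw* replicate 1, 8 (61.5%) lay above and 3 (23.1%) below, against 30.9% and 40.8% of all genes. Limma called 0 of the 13, with 0 at an unadjusted p below 0.05, and voom called 0. The members with the widest differences were *calypso* (2.37 and 3.34 against 4.92 and 5.59 RPKM) and *Caf1* (3.09 and 4.91 against 5.43 and 7.17 RPKM), while *pho*, which binds Polycomb response elements, stood at 14.3 and 13.7 against 9.21 and 12.3 RPKM. These genes are low, with between 8 and 69 reads per library for *calypso*, *Caf1* and *pho*. Of 15 Trithorax and acetylation genes 3 (20%) lay above and 3 (20%) below. Among those above was *Set1*, an H3K4 methyltransferase, at 8.48 and 8.07 against 11.4 and 11.6 RPKM.

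The Hox genes, the textbook targets of Polycomb silencing, had no common direction. Of 8, 2 (25%) lay above both *yw* libraries and 3 (37.5%) below, against 19.6% and 25.5% of all genes. The median log2 fold change was -0.0048, or 0.0556 after quantile normalization. *Scr* stood at 1.65 and 2.58 RPKM in *yw* against 3.42 and 4.09 RPKM in *H3.3B* K27R and *Ubx* at 2.94 and 2.84 against 4.66 and 4.32, whereas *Dfd* stood at 1.83 and 1.89 against 1.33 and 0.683 and *Antp* at 4.77 and 5.09 against 3.96 and 4.07. *Abd-B* and *abd-A* overlapped between genotypes. The unadjusted p of *Scr*, 0.0712, was the lowest of these in limma. Of 58 other developmental regulators with Polycomb domains, both mutant libraries lay above both *yw* libraries at 16 (27.6%) and below both at 8 (13.8%), against 19.6% and 25.5% of all genes, with a median of 0.0427. Without *yw* replicate 1 the counts were 25 (43.1%) above and 21 (36.2%) below, against 30.9% and 40.8% of all genes, and the median was -0.002. At an unadjusted p below 0.05 in limma, 4 (6.9%) were higher and 0 lower, against 4.18% and 8.15% of all genes. The 4 were *ara*, an Iroquois gene (1.5 and 2.25 against 3.9 and 5.09 RPKM), *ems*, a head gap gene (2.54 and 1.72 against 3.8 and 5.55), *unpg* (2.99 and 1.96 against 4.65 and 5.56) and *vg*, the wing selector (2.41 and 2.42 against 4.01 and 5.12). Their adjusted p in limma lay between 0.315 and 0.346. *gsb-n* stood on the other side, at 4.5 and 2.11 against 1.4 and 0.838 RPKM.

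**Figure D5:**
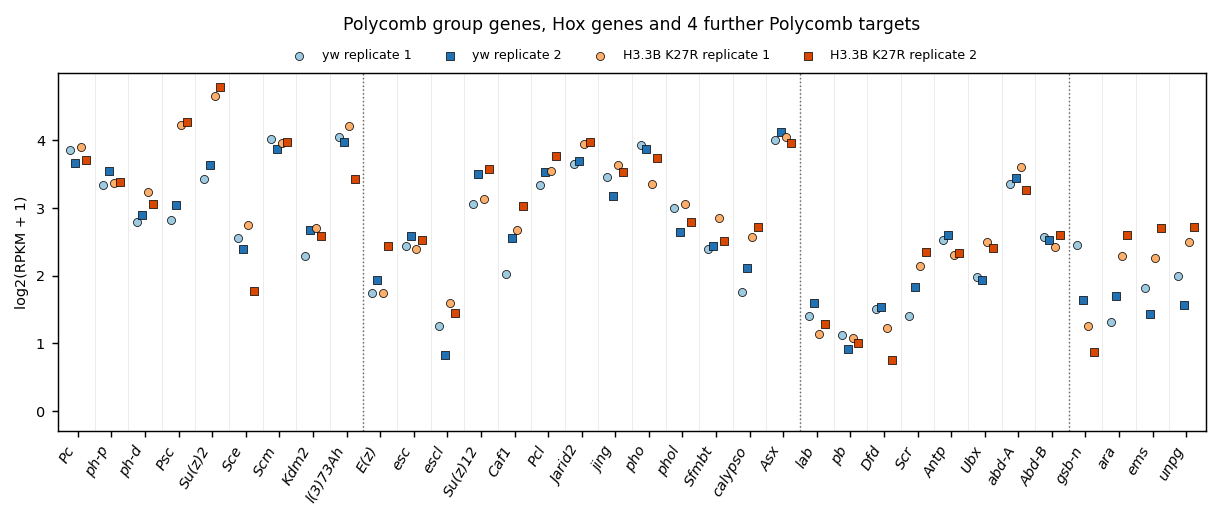
PRC1 genes, PRC2 and PhoRC genes (with *calypso* and *Asx* of a further Polycomb complex), Hox genes and 4 further Polycomb targets (separated by dotted lines from left to right), as log2(RPKM + 1) in each of the 4 libraries. *Psc* and *Su(z)2* are the members whose mutant libraries lie farthest above both yw libraries, at 17.7 and 18.4 against 6.07 and 7.23 RPKM for *Psc*.

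Among immune and stress genes, the lists with the highest medians were small. Of 12 antimicrobial peptide genes 3 (25%) lay above and 2 (16.7%) below both *yw* libraries, against 19.6% and 25.5% of all genes. The median was 0.60, and 0.22 without *yw* replicate 1. *Mtk* (Metchnikowin) stood at 7.03 and 8.81 RPKM in *yw* against 17.5 and 16.3 RPKM in *H3.3B* K27R, on 9 reads or fewer per library. Of the Turandot stress genes, *TotB* stood at 26.3 and 47.6 against 82.4 and 73.5 RPKM (log2 fold change 1.11 ± 0.26, unadjusted p = 0.00443 and adjusted p = 0.244, limma). *spz* (spätzle), the ligand of Toll, lay on the other side at 21 and 16 against 9.05 and 8.97 RPKM (log2 fold change -0.95 ± 0.24, adjusted p = 0.245), as did *nec* (necrotic), the serpin that restrains its activation, at 114.7 and 74 against 54 and 59.6 RPKM. Of 23 heat shock and chaperone genes 4 (17.4%) lay above and 7 (30.4%) below, near the shares of all genes. The mitochondrial chaperonins *Hsp60C* (73.2 and 69 against 47.8 and 48.8 RPKM) and *Hsp60B* (71.8 and 70.8 against 52.9 and 51.6 RPKM), known for their roles in the male germ line, were below, and the small heat shock gene *Hsp67Bc* (4.46 and 4.78 against 8.46 and 10.7 RPKM) above.

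Cytoplasmic ribosomal protein genes lay slightly above wild type as a list, with few members on the other side. Of 87 tested, both mutant libraries lay above both *yw* libraries at 48 and below both at 5, with a median log2 fold change of 0.111, and without *yw* replicate 1 at 62 (71.3%) and 14 (16.1%) with a median of 0.14, against 30.9% and 40.8% of all genes. *RpL36A*, a gene for a protein of the large subunit, stood at 653 and 699 RPKM in *yw* against 836 and 831 RPKM in *H3.3B* K27R (log2 fold change 0.30 ± 0.09, adjusted p = 0.312, limma). In the list, 8 of the 87 (9.2%) had an unadjusted p below 0.05 in limma, all of them higher, against 4.18% of all genes higher and 8.15% lower. Limma and voom each called 0 after adjustment.

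Muscle, respiratory and nerve genes lay near wild type in their medians. Of 35 sarcomere and flight muscle genes 3 (8.57%) lay above and 13 (37.1%) below both *yw* libraries, against 19.6% and 25.5% of all genes. The median was -0.0396 and became 0.0108 after median centring. Without *yw* replicate 1, 11 (31.4%) lay above and 15 (42.9%) below, close to the 30.9% and 40.8% of all genes. *Act88F*, *fln* (flightin, 1439.9 and 1266 against 1287 and 1388 RPKM) and other flight muscle markers overlapped. *Zasp66*, a Z-disc gene, stood at 965 and 713 RPKM in *yw* against 564 and 622 in the mutants. Of 26 oxidative phosphorylation genes 4 (15.4%) lay above and 4 (15.4%) below, and of 47 neuronal and synaptic genes 5 (10.6%) above and 11 (23.4%) below. *Syt1* (48.2 and 53.2 against 48.1 and 48.5 RPKM) and *brp* (23.6 and 26.4 against 24.6 and 25.4 RPKM), 2 proteins of the synapse, overlapped. *sNPF*, a neuropeptide gene, had the widest difference of the nerve list, at 10.3 and 8.68 against 3.41 and 6.63 RPKM.

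Non-coding CR loci lay below wild type as a class. Of 253 tested, both *H3.3B* K27R libraries lay above both *yw* libraries at 23 (9.09%) and below both at 89 (35.2%), with a median log2 fold change of -0.310, and it was -0.284 with the loci at 0 reads in both libraries of 1 genotype (11 in *H3.3B* K27R and 2 in *yw*) put at their bounds where these could be had. Without *yw* replicate 1 the counts were 53 (20.9%) and 125 (49.4%), against 30.9% and 40.8% of all genes, with a median of -0.332. At an unadjusted p below 0.05 in limma, 8 (3.16%) were higher and 40 (15.81%) lower, against 4.18% and 8.15% of all genes. *CR43855* had 0 reads in *yw* against 8 and 5 in *H3.3B* K27R (at least 2.21-fold higher), and *CR43766* had 1 and 3 reads in *yw* against 0. Many of these loci overlap coding genes, and whether the counting used strand is not given in the sources used here. Their reads and those of an overlapping gene may therefore not be told apart. Small nucleolar RNAs rested on few reads: of 146 tested, 25 had 0 reads in both mutant libraries and 20 had 0 reads in both *yw* libraries.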

How the data were processed

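Total RNA of whole male pharates was sequenced. Per the submitters' processing notes, the tools were STAR 2.5.2b, SAMtools 1.3.1, Subread 1.28.1 and DESeq2 1.18.1 with build dm3, in which, per the methods of the study, the replication-dependent histone genes stand as 1 annotated copy each. The values deposited by the authors are RPKM for each of 15115 genes and 6 libraries, and technical runs of *H3.3B* K27R replicate 1 had been merged. The deposited DESeq2 comparisons (fold changes and p values) were not used. The spike-in RNAs were not used here.

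RPKM values are not counts, so that limma 3.58.1 in R 4.3.3 (lmFit and eBayes with a trend) was run on log2(RPKM + 1), a scale that understates changes of low genes, with the 3 genotypes in 1 fit and the contrast *H3.3B* K27R minus *yw*, over the 11262 genes with a mean of at least 1 RPKM over the 4 libraries. The prior had 3.44 and the residual 3 degrees of freedom. Calls were at an adjusted p (Benjamini-Hochberg) below 0.05, or below 0.01 with an absolute log2 fold change above 1. Whole reads were recovered from the RPKM steps: 100% of 73342 values above 0 lay within 0.01 of a whole number, and voom (limma) on these reads called 18 genes at an adjusted p below 0.05. Errors are the standard errors of the fit, intervals and floors cover counting error only, and reads carry no molecular identifiers.

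Genes were placed by symbol in the BDGP6 annotation, which is not the build of the files; 144 of the genes tested were not placed. No promoter sequence was used here. Genes are named if they passed a test, encode H3, were among the 12 largest increases or decreases with separated groups and at least 5 RPKM, are among 11 genes the study lists, lie nearest to *H3.3B*, or were picked from the 4 widest of a list (not all are printed), with further members needed to say what a list is; 1 gene is not reported here. The members and lists were chosen with earlier results of these data known. The fit was tested on simulated data. Python 3.11.15, pandas 2.3.3, NumPy 2.4.6, SciPy 1.17.1 and matplotlib 3.10.9 were used.

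Alternatives were a pseudocount of 0.1, no filter, a mean of at least 5 RPKM, quantile normalization, median centring, the 4 libraries alone, a replicate block, voom, eBayes without a trend, a window of 500 kb around *H3.3B*, and each library left out. Leaving out libraries in the counts of list members, and the spermatogenesis list without seminal fluid members, were added after seeing the data.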

Additional observations from a re-analysis of the deposited data

How the results depend on the processing

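The number of genes at an adjusted p below 0.05, 7 in the reported fit, was 4 without a filter on low values, 3 with a mean of at least 5 RPKM, 2 with the 4 libraries alone, 1 with the replicate block and 18 with voom weights. That under the stricter rule, 1 in the reported fit, was 7 with voom weights. Leaving out 1 library in turn gave between 0 and 1 gene at an adjusted p below 0.05 and 0 under the stricter rule, where limma left 859 to 1440 genes at an unadjusted p below 0.05. The cause was not tested, except that leaving out a library also leaves fewer samples. The replicate numbers did not pair the libraries (correlations of same-numbered deviations of 0.0173, -0.213 and 0.00924), and no paired effect can be read from the block. Medians of the seminal fluid, spermatogenesis, Cpr, Tweedle, phototransduction and ribosomal protein lists kept their sign under the 13 alternatives: that of ribosomal protein genes was 0.162 after median centring and between 0.0975 and 0.14 without one of the *yw* libraries, and that of seminal fluid genes ranged from -0.969 to -0.152 with 1 library left out, and its members below the *yw* libraries, 25 with all libraries, from 26 to 50. The log2 fold changes of 42 genes, those called by limma or voom and others for which one is given, kept their sign in 545 of 545 comparisons with an alternative, with 50 losing and 15 gaining a call at an adjusted p below 0.05. Within 500 kb of *H3.3B*, 17 of 85 genes lay above and 22 below both *yw* libraries. Depth limits genes under about 5 RPKM, which rest on few reads.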

Other observations

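The detoxification and transport genes of gut, fat body and Malpighian tubule were not in the account above. Of 63 cytochrome P450 genes tested, both *H3.3B* K27R libraries lay above both *yw* libraries at 16 (25.4%) and below both at 20 (31.7%), against 19.6% and 25.5% of all genes. The median log2 fold change was 0.0086. *Cyp4p2* had the widest difference, at 10.6 and 10.1 RPKM in *yw* against 1.175 and 0 RPKM in *H3.3B* K27R, on 30 and 38 reads against 4 and 0. Its pooled ratio was 16.1 (95% Clopper-Pearson interval 6.02 to 60.9, counting error only), with an adjusted p of 0.115 in limma and 0.0799 with voom weights, and the *yw* replicates lay close together. In double *H3.3* K27R males it stood at 3.36 and 2.56 RPKM. *Cyp6a9* (3.52 and 1.92 against 0.532 and 0.318 RPKM) lay on the same side and *Cyp4d8* (1.6 and 1.5 against 3.98 and 5.55 RPKM) on the other. Among 38 glutathione and UDP transferase genes 7 lay above and 8 below, with *GstT4* at 41.5 and 82.8 against 98.6 and 96.5 RPKM and *GstE4* at 13 and 6.33 against 3.81 and 3.8 RPKM. Of 30 vacuolar ATPase genes 2 (6.67%) lay above and 12 (40%) below, against 19.6% and 25.5% of all genes. Without *yw* replicate 1, 9 (30%) lay above and 14 (46.7%) below, against 30.9% and 40.8%. The median was -0.105, and -0.0578 without *yw* replicate 1. Those with the widest differences were minor paralogs. Among them *VhaPPA1-2* (4.92 and 7.39 against 1.63 and 0.976 RPKM) and *Vha14-2* (12 and 13.5 against 6.23 and 8.19 RPKM) were lower. *VhaM9.7-c* was higher, at 5.19 and 7.79 against 11.1 and 13.2 RPKM. The abundant subunits *Vha55* (308 and 268 against 272 and 271 RPKM) and *Vha26* (191 and 177 against 167 and 185 RPKM) overlapped between genotypes.

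A cluster of small secreted genes on 2L resembled the seminal fluid genes in the order of the libraries. *CG16712* stood at 578 and 207 RPKM in *yw* against 75 and 63.8 RPKM in *H3.3B* K27R, and *CG16713*, the gene beside it, at 232 and 63.4 against 22.8 and 23.4 RPKM, both with Kunitz-type inhibitor domains and adjusted p values of 0.212 and 0.244 in limma. *CG2816* of the same cluster lay on the other side, at 5.8 and 6.1 against 16.4 and 11.5 RPKM. The lipase gene *CG18302* had 50 and 29 reads in *yw* and 0 in both mutant libraries (at least 13.1-fold lower), with an adjusted p of 0.152 in limma and 0.155 with voom weights. *CG10472*, a gene for a serine protease, stood at 2.69 and 5.04 RPKM in *yw* against 17.3 and 20.7 RPKM in the mutants, and *CG34138* at 2.52 and 5.68 against 19.5 and 24.2 RPKM. In blood cells and glia the counts were small. *Pxn* (peroxidasin), a haemocyte matrix enzyme, stood at 15.4 and 16.6 against 24.9 and 25.3 RPKM (log2 fold change 0.62 ± 0.17, adjusted p = 0.265, limma), and *Hml* (hemolectin) at 29.3 and 19.1 against 33.3 and 33.4 RPKM. *Eaat1*, the glutamate transporter of glia, stood at 95.5 and 51 against 29.8 and 33.4 RPKM (log2 fold change -1.12 ± 0.28, adjusted p = 0.244), while the glial identity gene *repo* was at 4.41 and 4.42 against 4.88 and 5 RPKM. Of 25 ecdysone response genes, the hormone-timed genes of metamorphosis, 9 (36%) lay above and 5 (20%) below both *yw* libraries. These shares were 19.6% and 25.5% over all genes, and the median of the list was 0.128. *Blimp-1* stood at 20.9 and 4.18 RPKM in *yw* against 2.07 and 1.41 RPKM in the mutants, with *yw* replicate 1 far from the other 3 libraries. *ftz-f1* stood at 132 and 137 against 92.6 and 100 RPKM, with the *yw* replicates together. *ImpE2* (1.47 and 1.38 against 3.06 and 3.29 RPKM) and *Hr4* (16.1 and 26.9 against 31.4 and 29.3 RPKM) lay on the other side. Of 11 clock genes 4 (36.4%) lay above and 2 (18.2%) below both *yw* libraries. *Clk* stood at 11.1 and 12.2 against 8.09 and 8.15 RPKM and *cyc*, on the other side, at 6.57 and 6.39 against 9.96 and 8.06 RPKM. *tim* overlapped at 9.33 and 11.2 against 10.6 and 12.3 RPKM. Whether the timing of development differed between these libraries was not tested.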
